A study of Mus musculus with 30 samples.

Results

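Rasgrp3, Nfatc2, St6gal1, Cd28 and Zfp395 are 5 mouse genes with roles in signalling, cell-surface glycosylation and transcription. They were taken from a table of 32361 gene IDs, of which 15119 passed the filter on low counts, and all 5 passed it. They were chosen because, after 6 h of stimulation, they stood far higher in macrophages lacking Ticam2 than in wild-type macrophages in these same data. Their values at 6 h are therefore given as a description, with no test. The tests are on untreated cells and on cells stimulated for 2 h, which the choice did not use.

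The study measured RNA by sequencing in primary macrophages grown from the bone marrow of C57BL/6J mice, either wild type (WT) or Ticam2-/- (KO). Ticam2 encodes TRAM, an adaptor protein that couples Toll-like receptor 4 to TRIF. All cultures of both genotypes were grown with L929 cell supernatant, a source of the growth factor M-CSF, during differentiation and after re-seeding. Lipopolysaccharide (LPS, a ligand of Toll-like receptor 4) was given at 10 ng/mL and lipoteichoic acid (LTA, a ligand chiefly of Toll-like receptor 2) at 100 ng/mL. Each genotype was left untreated, given LPS for 2 h or 6 h, or given LTA for 2 h or 6 h, which makes 10 groups of 3 libraries and 30 libraries in all. Each replicate came from 1 animal, with 3 animals per genotype. The sources used here do not give the ages of the mice or the part of Ticam2 that is deleted.

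RasGRP3, the product of Rasgrp3, is a guanine nucleotide exchange factor that diacylglycerol recruits to membranes, where it activates RAS and RAP proteins. Nfatc2 encodes NFAT1, a transcription factor that calcineurin dephosphorylates when calcium rises. St6gal1 encodes the Golgi enzyme that adds alpha-2,6-linked sialic acid to N-glycans. Cd28 encodes a co-stimulatory receptor best known on T cells, which binds CD80 and CD86 on antigen-presenting cells, and Zfp395 is the mouse counterpart of ZNF395, a DNA-binding factor induced by hypoxia.

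The genes lie on 5 chromosomes and none is a neighbour of another. On GRCm38, Rasgrp3 (ENSMUSG00000071042) lies at chr17:75435896-75529054 on the plus strand and Nfatc2 (ENSMUSG00000027544) at chr2:168476410-168601657 on the minus strand. St6gal1 (ENSMUSG00000022885, chr16:23224740-23360350), Cd28 (ENSMUSG00000026012, chr1:60716800-60773359) and Zfp395 (ENSMUSG00000034522, chr14:65358389-65398930) are on the plus strand. All 5 are protein coding. St6gal1 overlaps BC106179 and Zfp395 overlaps Gm48449, both on the opposite strand, and since the strand setting of the counting is not given, reads of these pairs cannot be told apart.

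Since the 5 genes fell together in WT at 6 h, the DNA just before their start sites is shown. RefSeq windows on GRCm38.p6 were found for 3 of the 5 members, 7 windows in all, and Cd28 and Zfp395 had none. Each run below is the 250 bases before an annotated start, 5′ to 3′ on the gene's strand, and capitals mark a match to a searched motif. The outermost start of each gene is shown, with a second St6gal1 start that held the most matches.
Rasgrp3, chr17:75435655-75435904, plus strand: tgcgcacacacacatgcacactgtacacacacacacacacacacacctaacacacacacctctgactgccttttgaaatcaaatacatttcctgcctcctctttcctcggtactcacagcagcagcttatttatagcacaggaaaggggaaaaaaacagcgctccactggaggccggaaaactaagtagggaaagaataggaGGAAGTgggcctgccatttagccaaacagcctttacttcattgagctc
Nfatc2, chr2:168601658-168601907, minus strand: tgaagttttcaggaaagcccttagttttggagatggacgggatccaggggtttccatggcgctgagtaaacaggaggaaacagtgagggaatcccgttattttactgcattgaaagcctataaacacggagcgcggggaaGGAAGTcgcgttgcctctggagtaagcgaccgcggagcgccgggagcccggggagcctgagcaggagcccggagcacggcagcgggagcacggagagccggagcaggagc
St6gal1, outermost start, chr16:23224490-23224739, plus strand: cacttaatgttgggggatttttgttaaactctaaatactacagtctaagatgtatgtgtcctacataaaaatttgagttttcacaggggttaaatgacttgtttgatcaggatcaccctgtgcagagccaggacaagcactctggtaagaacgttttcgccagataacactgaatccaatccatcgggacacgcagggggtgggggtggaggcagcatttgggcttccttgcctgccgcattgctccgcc
St6gal1, inner start, chr16:23290220-23290469, plus strand: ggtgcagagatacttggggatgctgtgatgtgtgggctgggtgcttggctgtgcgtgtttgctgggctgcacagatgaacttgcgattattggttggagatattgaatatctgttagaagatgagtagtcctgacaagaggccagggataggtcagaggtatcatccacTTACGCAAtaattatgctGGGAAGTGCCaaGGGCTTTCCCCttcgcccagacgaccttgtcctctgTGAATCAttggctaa
Motifs were searched on both strands, where N is any base. The interferon response element GAAANNGAAA was in none of the members' 7 windows and in 2.98% of all 32851 windows of that length. The ETS core GGAAGT was in 3 of the 7 windows, those shown for Rasgrp3 (position -48 from the start), Nfatc2 (position -110) and the inner St6gal1 start (position -62), and in 19.7% of all windows. The NF-kB pattern GGGNNNNNCC was in 2 of the 7, the inner St6gal1 window and a second Nfatc2 window that is not shown, and in 45.8% of all windows. The C/EBP pattern TTGCNNAA was in 3 of the 7, the inner St6gal1 window and further windows of Rasgrp3 and St6gal1 that are not shown, and in 9.56% of all windows. The AP-1 pattern TGANTCA was in 1 of the 7, the inner St6gal1 window, and in 6.75% of all windows. In the inner St6gal1 window the ETS match lies inside an NF-kB match. The outermost St6gal1 window held no match to these 5 motifs. A match is a description of the letters only, and which start these macrophages used is not known from the counts.

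Depth ran from 10641070 to 13521660 counts per library in the 18 untreated and 6 h libraries and from 1334784 to 2658329 in the 12 libraries of 2 h. Each KO group had less Ticam2 RNA than the WT group given the same treatment, with 5 to 10 counts per library in untreated KO cells and 120.5 to 145 in untreated WT cells. The gap was narrower in the 2 h libraries, at 3.16 ± 2.21 CPM (counts scaled to a common library size) in KO against 11.4 ± 1.82 in WT with LPS and 2.77 ± 0.95 against 10.1 ± 1.14 with LTA (SD, n = 3). Scaled by TMM factors, macrophage markers summed to 24440 to 32890 CPM over all libraries. Markers of erythroid cells summed to at least 3809 CPM in each untreated and 6 h library and at most 0.614 at 2 h. Fibroblast markers summed to 54.4 to 113.2 CPM at 2 h and at most 8.78 elsewhere. The 2 h libraries are thus a set that stands apart, and no untreated library belongs to it. KO and WT were compared within a set. A comparison of 2 h with untreated cells is also a comparison of the sets, and these cannot be told apart. Levels below are CPM scaled by TMM factors, and differences are log2 fold changes ± standard error from edgeR's quasi-likelihood fit, with 3 libraries per group.

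At 6 h, the time the genes were chosen on, every member was at a few CPM or less in WT and many times higher in KO. In WT given LPS for 6 h, Rasgrp3 held 1.34, 0.94 and 1.01 CPM, and in KO 43.6, 39.8 and 40.6. Nfatc2 held 0.98, 0.23 and 0.56 CPM in WT and 14.4, 11.9 and 12.4 in KO. Every KO library was above every WT library by more than the spread within either group. St6gal1 held 1.59, 1.76 and 1.91 CPM in WT and 21.2, 20.5 and 19.7 in KO, and Cd28 held 5.24, 7.96 and 5.29 in WT and 81.6, 77.5 and 79.0 in KO. Zfp395, the weakest of the 5, held 0.37, 0 and 0.23 CPM in WT and 3.95, 4.61 and 3.45 in KO. With so few WT counts (5 over the 3 libraries, against 152 in KO), its ratio of 20.5 has a 95% counting interval of 8.58 to 63.9.

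LTA for 6 h gave the same picture. Rasgrp3 held 1.33, 0.87 and 0.54 CPM in WT and 48.4, 47.8 and 49.8 in KO. Nfatc2 held 0.78, 0.87 and 0.54 CPM in WT and 11.9, 9.81 and 10.2 in KO. St6gal1 fell below 1.01 CPM in all 3 WT libraries, at 1.00, 0.76 and 0.54, and held 21.7, 19.4 and 20.5 in KO. The groups of these genes did not overlap. Cd28 held 3.99, 3.25 and 4.88 CPM in WT and 104.6, 101.7 and 102.2 in KO. Zfp395 held 0.11, 0.22 and 0 CPM in WT, from 3 counts in all, and 2.63, 2.23 and 3.51 in KO, a ratio of 25.5 with a 95% counting interval of 8.47 to 126. The libraries with 0 Zfp395 counts allow up to 0.243 CPM of the library total, for counting error only.

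**Figure D1:**
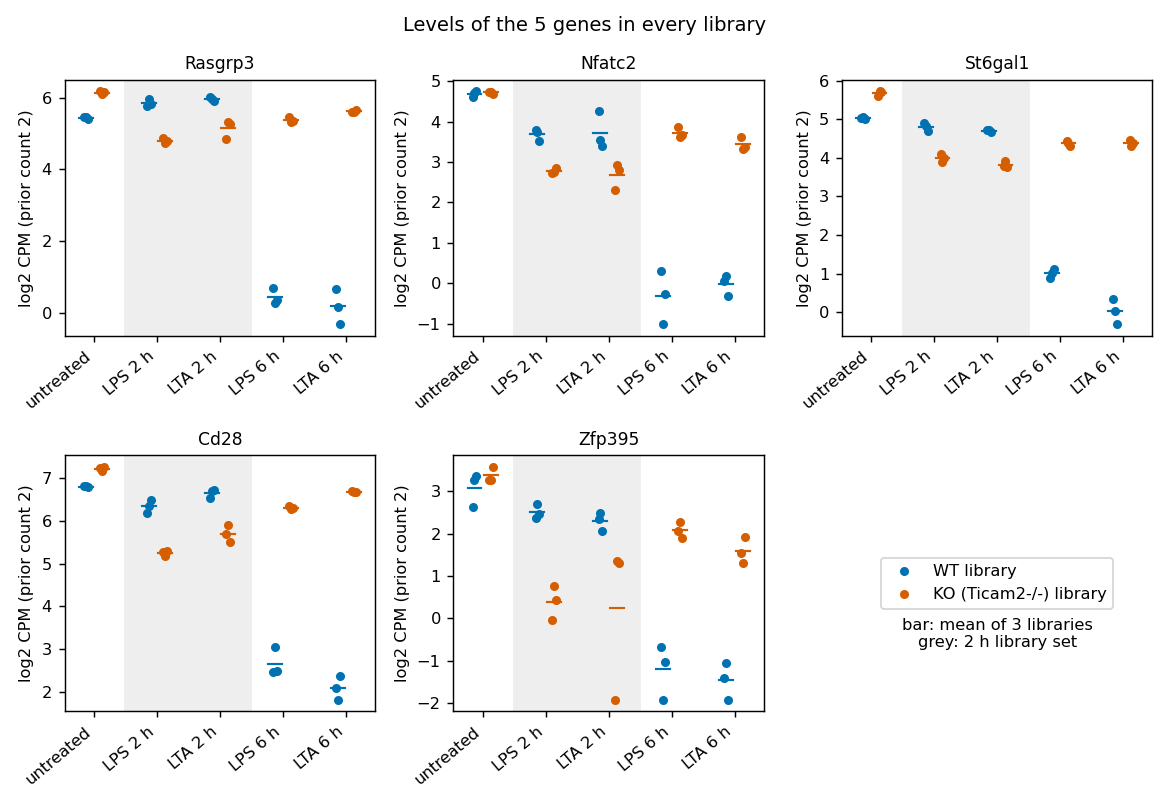
Level of each gene in each of the 30 libraries as log2 CPM (vertical axis, prior count 2) by condition (horizontal axis), WT in blue and KO in orange, with a bar at the mean of 3 libraries and grey behind the 2 h library set. KO lies below WT at 2 h and far above it at 6 h for all 5 genes, and the lowest Zfp395 points are libraries with 0 counts.

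As log2 fold changes of KO over WT with LPS at 6 h, Rasgrp3 stood at 5.22 ± 0.14, Nfatc2 at 4.42 ± 0.22, Zfp395 at 4.24 ± 0.46, Cd28 at 3.68 ± 0.09 and St6gal1 at 3.53 ± 0.13. In the order of all 15119 genes from the highest fold down, these are ranks 3, 17, 19, 47 and 58. With LTA, Rasgrp3 ranked 1 at 5.72 ± 0.14, St6gal1 6 at 4.72 ± 0.16, Cd28 8 at 4.66 ± 0.09, Zfp395 12 at 4.48 ± 0.56 and Nfatc2 28 at 3.84 ± 0.22. The choice had no numeric limit, so there is no member just inside or outside one. KO and WT differed in 63.3% of all genes with LPS and 58.5% with LTA at 6 h (adjusted p under 0.05). Scaled by library totals alone the median of all genes moved to 0.54 with LPS and 0.44 with LTA, and Rasgrp3 with LPS stood at 5.74.

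The description of these genes as silenced in WT and kept in KO held only in part. In WT, all 5 were far below untreated cells at 6 h, by log2 fold changes from -4.17 (Cd28) to -5.40 (Nfatc2) with LPS and from -4.78 (Cd28) to -6.06 (Zfp395) with LTA. In KO, all 5 were also below untreated KO cells in every library, by -0.76 ± 0.06 (Rasgrp3) to -1.35 ± 0.16 (Zfp395) with LPS and by -0.53 ± 0.06 (Rasgrp3) to -1.87 ± 0.18 (Zfp395) with LTA. Of all genes, 72.7% and 71.3% differed from untreated in WT with LPS and LTA, and 52.3% and 52.2% in KO. Whether fewer cells of a kind or less RNA per cell lowered a level cannot be told apart in bulk RNA.

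As CPM scaled by TMM factors, summed markers of some other cells also stood higher in WT than in KO at 6 h. The 8 erythroid markers summed to 6526 to 8443 CPM in WT with LPS and 4331 to 5303 in KO, and to 6321 to 7077 and 4269 to 4818 with LTA. As CPM of the library total, the erythroid sums overlapped between the genotypes, at 4510 to 5994 in WT and 4274 to 5486 in KO with LPS. The 8 neutrophil markers in the table summed to 29.1 to 30.7 CPM in WT with LPS and 11.7 to 14.5 in KO, and to 29.8 to 34.1 and 12.8 to 13.6 with LTA. The neutrophil sums stayed apart as CPM of the library total, at 20.4 to 21.2 in WT and 12.1 to 14.3 in KO with LPS. With LPS that sum came mostly from S100a8 (18.6 CPM in the mean in WT and 6.04 in KO) and S100a9 (6.94 and 4.08). Camp (2.64 and 2.39) and Ngp (1.25 and 0.341) were also higher in WT. Ltf (0.267 and 0.290) and Retnlg (0.078 and 0.104) were higher in KO, and Ly6g and Elane were at 0 in both. The order of the macrophage marker sums at 6 h depended on the scale. With LPS they overlapped by TMM factors, at 28090 to 30820 CPM in WT and 25680 to 28350 in KO. As CPM of the library total they were lower in WT, at 19940 to 21420 against 26560 to 28090. With LTA they were higher in WT by TMM factors (32760 to 32890 against 27080 to 27790). As CPM of the library total they were lower in WT (24440 to 24650 against 27410 to 28190). The part of any of these cells in the differences of the members was not tested.

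In untreated macrophages, which the choice did not use, 3 of the 5 genes were already higher in KO. Rasgrp3 held 43.9, 43.5 and 42.3 CPM in WT and 71.8, 67.7 and 71.0 in KO. All 3 KO libraries were above all 3 WT libraries, with a log2 fold change of 0.70 ± 0.05 (adjusted p = 4.7e-15, edgeR's quasi-likelihood test). St6gal1 held 32.8, 33.1 and 31.7 CPM in WT and 48.6, 52.6 and 51.6 in KO, a log2 fold change of 0.65 ± 0.05 (adjusted p = 3.7e-14). Cd28 held 112.5, 111.8 and 110.2 CPM in WT and 150.2, 143.6 and 153.4 in KO, a log2 fold change of 0.42 ± 0.05 (adjusted p = 1.9e-09). Neither group overlapped the other for these genes. Nfatc2 held 24.0, 25.8 and 26.6 CPM in WT and 26.4, 26.4 and 25.6 in KO, with a log2 fold change of 0.04 ± 0.07 (adjusted p = 0.81). Zfp395 held 5.92, 9.34 and 10.0 CPM in WT and 9.43, 9.41 and 11.6 in KO, with a log2 fold change of 0.29 ± 0.14 (adjusted p = 0.19). The groups overlapped for Nfatc2 and Zfp395. Over all genes, 5.98% were called higher in untreated KO cells and 13.5% were called in either direction.

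At 2 h the order of the genotypes was the reverse of that at 6 h. The times also differ in library set, and a set effect that differs between the genotypes cannot be told apart from time. With LPS, all 5 members were lower in KO, against 7.26% of all genes called lower and 16.4% called in either direction. Rasgrp3 held 54.0, 61.9 and 56.2 CPM in WT and 29.0, 26.1 and 27.5 in KO, a log2 fold change of -1.07 ± 0.12 (adjusted p = 3.8e-10). Cd28 held 73.1, 80.7 and 89.1 CPM in WT and 38.2, 35.7 and 39.3 in KO, a log2 fold change of -1.13 ± 0.11 (adjusted p = 4.5e-12). For both, the highest KO library was far below the lowest WT library. St6gal1 held 29.5, 27.9 and 25.8 CPM in WT and 17.0, 14.6 and 15.6 in KO, a log2 fold change of -0.82 ± 0.15 (adjusted p = 1.1e-04). Nfatc2 held 13.5, 13.1 and 11.2 CPM in WT and 6.36, 6.43 and 7.004 in KO, a log2 fold change of -0.91 ± 0.27 (adjusted p = 0.011). Zfp395 held 4.91, 6.25 and 5.24 CPM in WT and 0.707, 1.43 and 1.08 in KO, a log2 fold change of -2.22 ± 0.61 (adjusted p = 0.0062). The groups did not overlap for these genes either, though Zfp395 rests on 7 counts in KO and 33 in WT, summed over 3 libraries. Without the second KO library given LPS, the Nfatc2 difference was -0.89 ± 0.32 and no longer passed (adjusted p = 0.064).

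LTA for 2 h gave the same direction, with 4 of 5 members called lower in KO, against 5.21% of all genes called lower and 13% called in either direction. Rasgrp3 held 64.2, 61.4 and 59.8 CPM in WT and 28.4, 39.3 and 38.4 in KO, a log2 fold change of -0.81 ± 0.12 (adjusted p = 1.6e-07). Cd28 held 93.3, 103.7 and 105.4 CPM in WT and 51.8, 59.6 and 45.1 in KO, a log2 fold change of -0.94 ± 0.10 (adjusted p = 6.4e-11). All 3 KO libraries were again below all 3 WT libraries. St6gal1 held 26.04, 26.22 and 25.01 CPM in WT and 13.6, 14.8 and 13.4 in KO, a log2 fold change of -0.88 ± 0.16 (adjusted p = 1.2e-04). Nfatc2 held 18.8, 11.3 and 10.3 CPM in WT and 4.67, 7.39 and 6.68 in KO, a log2 fold change of -1.10 ± 0.27 (adjusted p = 0.0025). The first WT library stood above the other two for Nfatc2, and without it the difference was -0.80 ± 0.30 (adjusted p = 0.10). Zfp395 held 4.84, 5.36 and 3.92 CPM in WT and 0, 2.31 and 2.23 in KO. Its log2 fold change of -1.70 ± 0.61 did not pass (adjusted p = 0.056), though the groups did not overlap. It passed with library totals (adjusted p = 0.048), with no filter (0.023), in DESeq2 (0.024), with the replicate block (0.045) and without the second KO library given LTA (0.047). Without any 1 of the other 5 libraries, or with relative log expression factors, it did not pass (adjusted p = 0.051 to 0.33), and without the KO library at 0 the difference shrank to -1.02 ± 0.58. The KO library with 0 counts allows up to 1.37 CPM of the library total, for counting error only.

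**Figure D2:**
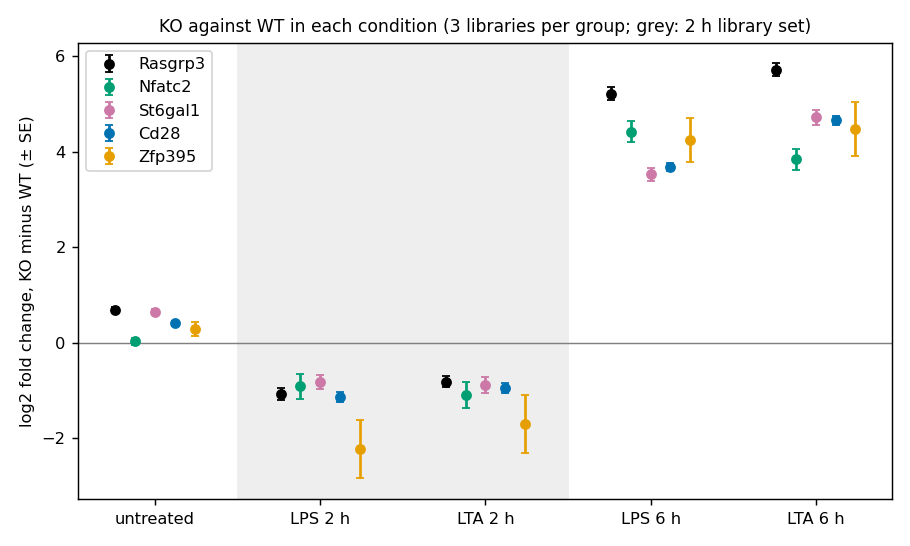
Log2 fold change of KO minus WT (vertical axis) with its standard error as bars for each gene in each condition (horizontal axis), 3 libraries per group, grey behind the 2 h library set. All 5 genes lie below 0 at 2 h, from -0.81 to -2.22, and between 3.53 and 5.72 at 6 h, the time they were chosen on.

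The 2 h order was shared by many other genes that were high in KO at 6 h. Of the 60 genes called higher in KO with LPS at 6 h with log2 folds of at least 3.5, a group that holds all 5 members, 31 (51.7%) were called lower in KO with LPS at 2 h. Of the 480 such genes with log2 folds of at least 2, 34.2% were lower at 2 h and 0.417% were higher. With LTA, 42.6% of 47 genes at 3.5 or more, again with all 5 members among them, were lower at 2 h, and 32.2% of 395 at 2 or more. In untreated cells, 31.7% of the 60 genes were called higher in KO. The 2 h and 6 h comparisons share no library. With library totals as the scale, the split of all calls at 2 h turned, from 55.7% to 38.1% higher in KO with LPS and from 60.1% to 44.4% with LTA, while the members' 2 h differences kept their direction.

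**Figure D3:**
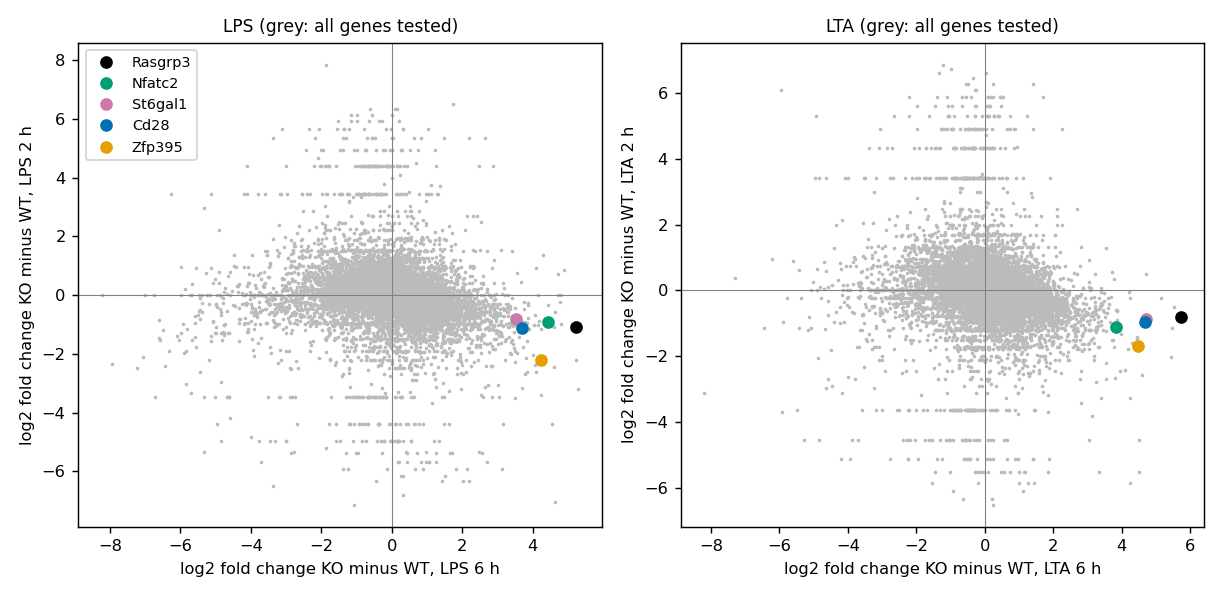
Log2 fold change of KO minus WT at 6 h (horizontal axis) and at 2 h (vertical axis) for all 15119 genes tested (grey) and the 5 genes (coloured), LPS at left and LTA at right. The 5 genes lie at the far right and below 0, and the stripes of grey points are genes with a few counts at 2 h.

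Compared with untreated cells of the same genotype, the members went different ways in WT at 2 h, and all of them were lower in KO. In WT, Rasgrp3 was higher at 2 h than in untreated cells, by 0.41 ± 0.09 with LPS (adjusted p = 8.3e-05) and 0.51 ± 0.09 with LTA (adjusted p = 2.2e-06). Nfatc2 was lower, by -1.04 ± 0.16 with LPS (adjusted p = 1.4e-07) and -0.94 ± 0.16 with LTA (adjusted p = 2.1e-06). Cd28 was lower with LPS, at -0.44 ± 0.07 (adjusted p = 1.4e-06), and stood at -0.14 ± 0.07 with LTA (adjusted p = 0.11). In all, 3 of 5 members passed with LPS in WT (1 higher, 2 lower), against 45% of all genes (19.5% higher and 25.5% lower), and 4 of 5 with LTA (1 higher, 3 lower), against 43% (19% and 23.9%). St6gal1 stood at -0.25 ± 0.10 with LPS (adjusted p = 0.069) and -0.34 ± 0.11 with LTA (adjusted p = 0.018), and Zfp395 at -0.61 ± 0.30 (adjusted p = 0.088) and -0.84 ± 0.33 (adjusted p = 0.033). The LTA calls of St6gal1 and Zfp395 ended in DESeq2 (adjusted p = 0.090 and 0.053), where 2 of 5 members passed.

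In KO, all 5 members were lower at 2 h than in untreated cells with both ligands, against 57.2% of all genes with LPS and 56% with LTA in either direction, and 30.4% and 29.7% lower. Zfp395 had the largest fall among the 5, at -3.13 ± 0.44 with LPS and -2.82 ± 0.41 with LTA. Cd28 was lower, at -1.99 ± 0.09 and -1.505 ± 0.08, Nfatc2 at -1.99 ± 0.18 and -2.08 ± 0.18. St6gal1 was lower, at -1.72 ± 0.11 and -1.87 ± 0.11, and Rasgrp3 at -1.37 ± 0.10 and -1.002 ± 0.09. The adjusted p values ran from 4.7e-27 to 4.6e-08. KO levels at 2 h were in turn below KO levels at 6 h in the mean for every member and ligand, though the Zfp395 libraries given LTA overlapped (up to 2.31 CPM at 2 h and down to 2.23 at 6 h). An example is 37.7 ± 1.85 against 79.3 ± 2.07 CPM (SD, n = 3) for Cd28 with LPS. These differences run across the library sets. In WT the levels ran the other way, with Cd28 at 81.0 ± 8.02 CPM at 2 h and 6.16 ± 1.55 at 6 h.

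The difference between the genotypes in the 2 h response, tested as an interaction, passed for all 5 members with each ligand, against 17.9% of all genes with LPS (7.9% lower) and 15.4% with LTA (6.33% lower). With LPS the KO response was lower than the WT response by a log2 difference of -1.77 ± 0.13 for Rasgrp3 (adjusted p = 4.1e-16), -1.55 ± 0.12 for Cd28 (1.7e-15) and -1.47 ± 0.16 for St6gal1 (1.2e-10). For Zfp395 it was -2.51 ± 0.62 (adjusted p = 0.0019) and for Nfatc2 -0.95 ± 0.28 (adjusted p = 0.0095). With LTA the differences ran from -1.14 ± 0.28 for Nfatc2 (adjusted p = 0.0021) to -1.99 ± 0.62 for Zfp395 (adjusted p = 0.020). Each value includes the untreated difference between the genotypes, in which Rasgrp3, St6gal1 and Cd28 were called higher in KO. The LTA call of Zfp395 ended without the first or second WT or the first KO library given LTA (adjusted p = 0.054, 0.075 and 0.16), and that of Nfatc2 without the first WT library (0.077). The LPS call of Nfatc2 ended without the second KO library given LPS (adjusted p = 0.050).

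At 2 h, 1 difference between the ligands passed among these genes. In WT, edgeR called 0 of 5 members different between LPS and LTA, DESeq2 likewise 0, and 1 of 5 had an unadjusted p under 0.05, against 1.2% of all genes called. That member was Cd28, at -0.30 ± 0.09 (LPS minus LTA, adjusted p = 0.13). In KO, Cd28 was lower with LPS than with LTA by -0.49 ± 0.12 (adjusted p = 0.017), the single call among 5, against 1.4% of all genes (0.258% lower with LPS). That call ended without the first or second KO library given LTA or the second given LPS (adjusted p = 0.050, 0.25 and 0.17). The differences of the other 4 members in KO were -0.37 ± 0.14 for Rasgrp3, 0.09 ± 0.31 for Nfatc2, 0.15 ± 0.18 for St6gal1 and -0.30 ± 0.84 for Zfp395. At 6 h, as a description, St6gal1 and Cd28 were further down in WT with LTA than with LPS, with no overlap, at 0.766 ± 0.228 against 1.75 ± 0.165 CPM and 4.04 ± 0.819 against 6.16 ± 1.55 CPM (SD, n = 3). In KO at 6 h, Cd28 stood at 79.3 ± 2.07 CPM with LPS and 102.8 ± 1.54 with LTA, and Rasgrp3 at 41.3 ± 2.00 and 48.7 ± 1.04. Over all genes the ligands differed at 6 h in 31.8% in WT and 2.66% in KO. The doses of the ligands differ, so these are comparisons of exposures.

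Ordered by mean level over the 10 groups, untreated KO cells were highest and the WT groups of 6 h lowest for every member. The place of a 2 h group among untreated and 6 h groups is also a comparison of the library sets. For Rasgrp3 the order after untreated KO was WT with LTA and LPS at 2 h (overlapping each other), KO with LTA at 6 h, then untreated WT and KO with LPS at 6 h (overlapping), and KO at 2 h. For Cd28, untreated KO and untreated WT were followed by KO with LTA at 6 h and WT with LTA at 2 h, which overlapped. For Nfatc2 the top pair, untreated KO and WT, overlapped, and the next 4 groups, all between 10.6 and 13.5 CPM in the mean, each overlapped the next. For St6gal1, WT at 2 h lay between untreated WT and KO at 6 h, and the KO groups with LTA and LPS at 6 h overlapped at 20.5 CPM. For Zfp395 each group overlapped the next down to KO with LPS at 2 h, which lay above WT at 6 h.

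Across the 18 untreated and 6 h libraries, the log2 CPM of the members ran together, with Pearson's r from 0.947 (Cd28 and Zfp395) to 0.990 (Rasgrp3 and Cd28). All of them share the WT fall on which they were chosen, and the libraries share their groups. Among 11027 genes, the closest to Rasgrp3 were Nanos1 (r = 0.994), Coro1c, Kifc3, Cxcr4 and Cipc. The closest to Nfatc2 were Tfdp2 (r = 0.993), Ccne2, Snx24, Cdca7 and Fli1. Closest to St6gal1 were Steap3 (r = 0.996), Cd300lb, Myo1f, Rassf3 and Dhrs3. Closest to Cd28 were Specc1 (r = 0.997), Inppl1, Cxcr4, Plekhm1 and Arl11, and closest to Zfp395 were Slc35c2 (r = 0.991), Ypel3, Lyl1, Bmyc and Sh2d1b1. Cxcr4, a chemokine receptor gene, was in the lists of both Rasgrp3 and Cd28. With a prior count of 0.5, 19 of the 25 names stayed among the 5 closest of their member, and Fli1, Arl11, Slc35c2, Ypel3, Lyl1 and Bmyc did not, so 4 of the 5 names for Zfp395 depend on that setting. In the 2 h libraries, not used for this likeness, 18 of the 24 distinct genes were called lower in KO with LPS. With LTA 17 were, and 0 were called higher with either ligand. Over all genes, 7.26% and 5.21% were called lower. The 24 genes were all higher in KO at 6 h, by 1.28 (Inppl1) to 4.61 (Cdca7) with LPS, so all genes are not a matched standard. Of genes called higher in KO with LPS at 6 h, 13.6% were lower at 2 h, and 34.2% of those with log2 folds of at least 2. With LPS, Cxcr4 was lower in KO by -3.18 (adjusted p = 1.0e-25), Cdca7 by -2.45 (adjusted p = 8.6e-06) and Snx24 by -1.95 (adjusted p = 2.9e-10), the lowest 3 of the 24. At the other end, Coro1c stood at 0.04 (adjusted p = 0.79).

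The pathways around the 5 genes did not move as a block. Of 122 listed genes of these pathways, 109 were tested. With LPS at 6 h, 42 were higher in KO and 51 lower, against 32.7% and 30.6% of all genes, and with LTA 40 were higher and 50 lower, against 30.5% and 28%. With library totals as the scale the split turned to 64 higher and 26 lower with LPS and 60 and 28 with LTA. The median log2 fold change of the 109 genes was -0.15 with LPS and -0.10 with LTA, beside 0.01 for all genes in each. With LPS at 2 h, 18 were higher and 13 lower, against 9.11% and 7.26% of all genes, and this split also turned with library totals, to 12 higher and 18 lower. In untreated cells 4 were higher and 21 lower, against 5.98% and 7.47%.

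**Figure D4:**
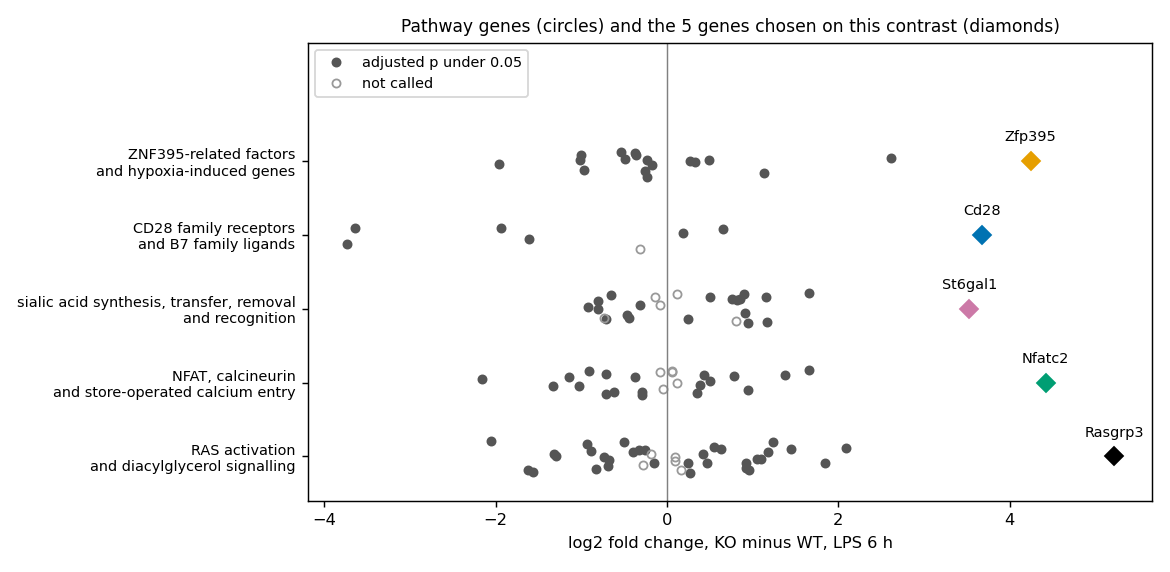
Log2 fold change of KO minus WT with LPS at 6 h (horizontal axis) for the 109 tested genes of 5 pathway lists (circles, filled where adjusted p was under 0.05) and for the 5 genes chosen on this contrast (diamonds), 1 row per list. The pathway genes spread from -3.74 to 2.62, on both sides of 0.

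In RAS activation and diacylglycerol signalling, 16 of 37 genes were higher in KO with LPS at 6 h and 16 were lower, against 32.7% and 30.6% of all genes. With library totals 23 were higher and 9 lower. Rasgrp1, a close relative of Rasgrp3, ran opposite to it. It held 1.71, 1.07 and 1.00 CPM in untreated WT, 31.5, 35.8 and 38.7 in WT with LPS for 6 h, and 12.99, 11.3 and 10.4 in KO with LPS for 6 h. The groups did not overlap, and KO stood at -1.62 ± 0.09 against WT (adjusted p = 1.4e-22). At 2 h with LPS, Rasgrp1 was higher in KO, at 9.19, 11.4 and 7.54 CPM against 3.07, 1.71 and 1.498 in WT (2.28 ± 0.40 on the log2 scale, adjusted p = 9.7e-06). So Rasgrp1 was above WT in KO at 2 h and below it at 6 h, and Rasgrp3 the reverse. Rasgrp4 was higher in KO at 6 h by 0.54 ± 0.15 (adjusted p = 9.4e-04), and Rasgrp2 stood at -0.27 ± 0.33 (adjusted p = 0.50). Dgkz, a kinase that removes diacylglycerol, was higher in KO by 1.84 ± 0.06, Rras2, a RAS-related GTPase, was lower, at -2.05 ± 0.08, and Rasa4, a RAS GTPase-activating protein, was lower, at -1.56 ± 0.05.

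In the list of NFAT, calcineurin and store-operated calcium entry, 8 of 24 tested genes were higher in KO with LPS at 6 h and 11 lower, beside all-gene shares of 32.7% and 30.6%. Library totals turned this to 16 higher and 6 lower. Nfatc1, which encodes NFAT2, moved like Nfatc2. It held 34.5, 36.7 and 33.5 CPM in untreated WT, 7.68, 8.78 and 7.77 in WT with LPS for 6 h, and 21.4, 21.2 and 20.5 in KO with LPS for 6 h, a genotype difference of 1.38 ± 0.10 (adjusted p = 1.7e-18). At 2 h Nfatc1 was lower in KO, at 12.02, 9.998 and 9.698 CPM with LPS against 19.6, 29.0 and 22.5 in WT (-1.18 ± 0.18, adjusted p = 1.2e-06), and by -0.80 ± 0.19 with LTA (adjusted p = 0.0036). Nfatc1 thus showed the order of the 5 genes at both times. Nfatc3 was higher in KO with LPS at 6 h by 0.43 ± 0.07, and Nfat5 was lower, at -0.29 ± 0.08, which turned to 0.23 with library totals. Stim2, a sensor of calcium stores, was lower in KO at 6 h by -1.33 ± 0.07 and higher at 2 h by 0.61 ± 0.15 (adjusted p = 0.0017). Itpr1, a calcium release channel of the endoplasmic reticulum, was lower, at -2.15 ± 0.11, and Dyrk2, a kinase that phosphorylates NFAT, at -1.03 ± 0.04. Nfatc4 did not pass the filter on low counts.

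**Figure D5:**
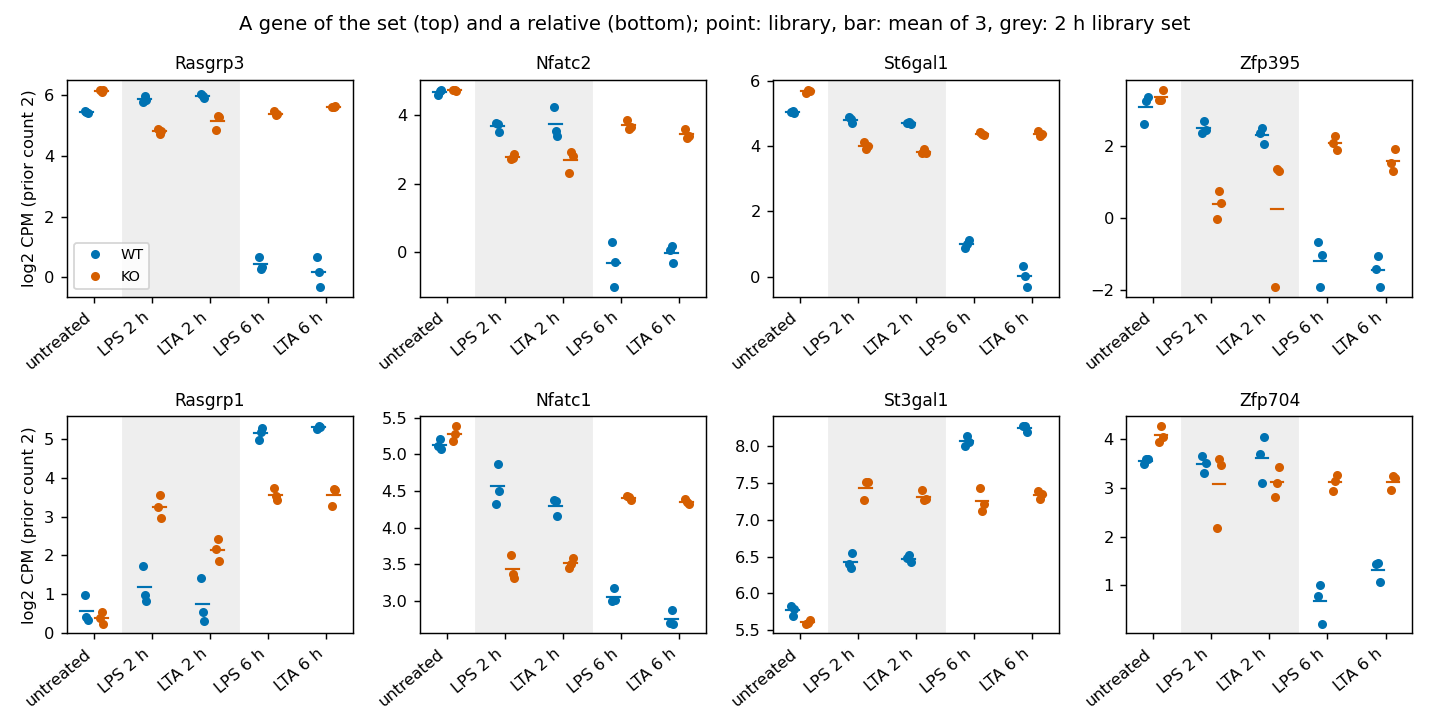
Level of 4 of the genes (top row) and of a relative of each (bottom row) in every library as log2 CPM (vertical axis, prior count 2) by condition (horizontal axis), with a bar at the mean of 3 libraries and grey behind the 2 h library set. Nfatc1 and Zfp704 fall in WT at 6 h like the genes above them, and Rasgrp1 and St3gal1 rise.

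Among genes of sialic acid synthesis, transfer, removal and recognition, 11 of 24 tested genes were higher in KO with LPS at 6 h and 8 lower (13 and 4 with library totals), beside 32.7% and 30.6% of all genes. St3gal1, which adds alpha-2,3-linked sialic acid to O-glycans, ran opposite to St6gal1. It held 56.6, 51.6 and 55.2 CPM in untreated WT, 254.6, 278.9 and 265.6 in WT with LPS for 6 h, and 172.4, 138.5 and 147.9 in KO with LPS for 6 h (-0.80 ± 0.05 for KO against WT, adjusted p = 5.2e-20). At 2 h with LPS it was higher in KO by 1.01 ± 0.09 (adjusted p = 3.3e-14). St3gal3 was likewise lower in KO at 6 h (-0.92 ± 0.06) and higher at 2 h with LPS (0.83 ± 0.22, adjusted p = 0.0086). St3gal2 was higher in KO at 6 h by 0.82 ± 0.12, and St3gal4 was lower, at -0.65 ± 0.06. St3gal5 was lower, at -0.44 ± 0.04, which turned to 0.08 with library totals, and St3gal6 stood at -0.14 ± 0.18. B4galt1, a galactosyltransferase that builds the acceptor of St6gal1, was higher in KO by 1.15 ± 0.06. St6gal2 did not pass the filter on low counts.

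Of the CD28 family receptors and B7 family ligands, 7 of 13 listed genes were tested, and 2 were higher and 4 lower in KO with LPS at 6 h, also with library totals, beside 32.7% and 30.6% of all genes. The ligands of CD28 ran opposite to Cd28. Cd86 held 7.77, 6.97 and 5.73 CPM in untreated WT, 76.9, 78.8 and 75.2 in WT with LPS for 6 h, and 6.25, 5.41 and 5.62 in KO with LPS for 6 h (-3.74 ± 0.08, adjusted p = 6.1e-41). Cd80 was lower in KO by -1.93 ± 0.13 (adjusted p = 1.0e-19), and Cd274, which encodes the inhibitory ligand PD-L1, by -3.63 ± 0.06 (adjusted p = 3.2e-45). At 2 h with LPS, Cd86 stood at 0.07 ± 0.25 (adjusted p = 0.92) and Cd80 at -0.00 ± 0.54 (adjusted p = 1.0). The receptors Icos and Pdcd1 did not pass the filter on low counts, and Ctla4 was not analysed here.

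Because Cd28 is best known on T cells, T cell markers are set beside it. Untreated WT cells held 111.5 ± 1.17 CPM of Cd28 (SD, n = 3), while Cd3e, Cd3d, Cd3g and Trac, which define T cells, each averaged at most 0.401 CPM in every group. The 12 T cell markers summed to 1.497 to 2.075 CPM in untreated WT and 1.92 to 2.53 in untreated KO libraries. With LPS for 6 h they summed to 17.9 to 20.5 CPM in WT and 4.85 to 6.67 in KO. Most of this came from Cd247 (14.3 and 3.81 CPM in the mean) and Lck (3.02 and 0.495), which ran opposite to Cd28. Cd2, Cd5 and Zap70 were lower in WT than in KO, like Cd28, at up to 0.471 CPM (Cd5 in KO). The rest of the list was higher in WT, at up to 0.678 CPM (Bcl11b). B cell markers, among them those of B cell precursors, summed to at most 4.27 CPM in any library. Counts of Cd28 were not whole numbers in 12 of 30 libraries, so a Cd28 count can be split with another feature.

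Among ZNF395-related factors and hypoxia-induced genes, 5 of 17 were higher in KO with LPS at 6 h and 12 lower, beside 32.7% and 30.6% of all genes. The majority turned with library totals, to 10 higher and 3 lower. Zfp704, a relative of Zfp395, moved like it at 6 h. It held 10.98, 11.8 and 11.8 CPM in untreated WT, 1.46, 1.75 and 0.901 in WT with LPS for 6 h, and 7.40, 8.59 and 9.37 in KO with LPS for 6 h (2.62 ± 0.22, adjusted p = 7.2e-16). It was also higher in untreated KO cells, by 0.55 ± 0.10 (adjusted p = 4.9e-05). At 2 h with LPS its difference was -0.19 ± 0.27 (adjusted p = 0.74). The hypoxia-induced genes did not all go the same way with LPS at 6 h. Hk2, a hexokinase (-1.96 ± 0.05), and Slc2a1, a glucose transporter (-0.997 ± 0.04), had lower levels in KO than in WT. So did P4ha1, a prolyl hydroxylase (-0.97 ± 0.05). Egln3 (1.13), Pdk1 (0.50), Ankrd37 (0.33) and Egln1 (0.27) of this list were called higher in KO.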

How the data were processed

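The labels place 30 RNA libraries in 10 groups. The deposited values are expected counts per gene in 1 table from the authors, of which 0 columns were left out. Among values above 0, 25.2% were not whole, and all were rounded to whole counts. The submitters' processing notes name fastp 0.24.0, STAR 2.7.11, SAMtools 1.22.1, Subread 2.1.1 with featureCounts, and the builds GRCm38 and mm10. For the part each tool played, the annotation counted against and any use of strand, the sources used here give nothing. GENCODE M21 gave symbols to 26304 of the 32361 Ensembl IDs.

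The fit used edgeR 4.0.16 in R 4.3.3. Genes were kept by filterByExpr (at least 10 counts, 15 in total), which left 15119, and libraries were scaled by TMM factors of 0.69 to 1.15. The robust quasi-likelihood model had 1 coefficient for each group and 20 residual degrees of freedom, and the common biological coefficient of variation was 0.0411. P-values were adjusted by Benjamini-Hochberg over all genes in each of 21 contrasts, at 0.05. A standard error is the size of the log2 fold change divided by the root of its F. The script was tested on simulated data. Single libraries are plotted as log2 CPM with a prior count of 2. Ratios of summed counts carry exact 95% binomial intervals. These intervals, and the limit of 3 counts for a count of 0, cover counting error only. The number of pairs of libraries with identical values was 0.

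The members and the gene lists were chosen with earlier results of these data known. Genes named are the 5 members, Ticam2, preset relatives and the 5 genes most like each member. From each pathway list the 3 genes with the smallest p among those called were named (KO against WT, LPS at 6 h). For the hypoxia list, the genes called higher in KO there were named as well. Markers named define or lead their list, or are given to show how its genes differ. The likeness used genes with a mean of at least 1 CPM. Promoter windows came from RefSeq. The alternatives were relative log expression factors, library totals, no filter, a replicate block, only the groups compared, DESeq2 1.42.0, a prior count of 0.5 for the likeness, and leaving out each library in turn.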

Additional observations from a re-analysis of the deposited data

Results flagged for a closer look

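By the interaction test in edgeR's quasi-likelihood fit, the response to 2 h of stimulation differed between the genotypes for all 5 genes with each ligand. Over all genes, 17.9% passed with LPS and 15.4% with LTA. The LTA calls of Zfp395 and Nfatc2 and the LPS call of Nfatc2 were lost without certain single libraries. Values are given as KO minus WT on the log2 scale. With LPS they were -1.77 for Rasgrp3, -0.95 for Nfatc2, -1.47 for St6gal1, -1.55 for Cd28 and -2.51 for Zfp395. With LTA they were -1.51 for Rasgrp3, -1.14 for Nfatc2, -1.53 for St6gal1, -1.36 for Cd28 and -1.99 for Zfp395. Each uses untreated libraries of the deeper set and 2 h libraries of the shallower set. A set effect alike in both genotypes would cancel in it, and one that differs between them cannot be told apart from time.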

How the results depend on the processing

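The 3 calls in untreated cells held under every alternative run. Without single libraries, KO against WT at 2 h gave 4 to 5 calls with LPS and 3 to 5 with LTA. In a fit of only the groups compared at 2 h, Zfp395 fell below the filter on low counts with each ligand. The genotype difference in the 2 h response gave 4 to 5 calls with LPS and 3 to 5 with LTA when 1 library was left out. The call for LPS against LTA at 2 h in KO ranged from 0 to 1. WT given LTA for 2 h against untreated gave 2 calls in a fit of only the groups compared, 2 in DESeq2, and 2 to 4 without single libraries. Some differences between LPS and LTA at 2 h that did not pass changed direction when 1 library was left out. Nfatc2 ran from -0.27 to 0.20 in WT (0.005 without the third library given LPS) and from -0.11 to 0.25 in KO, and Zfp395 ran from -0.97 to 0.25 in KO (0.06 without the third library given LTA). The cause was not tested.

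The labels do not say which replicate number is which animal, so the numbers were not taken as pairs. Same-numbered libraries of most groups did not deviate together, which cannot settle whether they share an animal. The main fit treated all libraries as independent. With the replicate number as a block, 3 members were called in untreated cells. The block gave 5 calls with LPS and 5 with LTA at 2 h, where Zfp395 passed (adjusted p = 0.045), and 5 and 5 for the genotype differences. With library totals, the members' fold changes at 6 h moved, for example to 4.05 for St6gal1 and 4.204 for Cd28 with LPS in KO against WT. Depth limits Zfp395 at 2 h most, with 7 to 33 counts over a group.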
